A study of Homo sapiens with 6 samples.

Results

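Short-term culture of LP-1 cells at an extracellular pH (pHe) of 6.8, called SA here, was compared with control culture at pHe 7.4, called Ctrl. LP-1, the source of all arrays, is an established line of malignant human plasma cells (multiple myeloma). Of the 6 arrays of the series, 4 enter the comparison: 2 SA arrays and 2 Ctrl arrays, which the labels call biological replicates. The other 2 arrays are of cells kept at pHe 6.8 for the long term, called LA, and their values are given beside the comparison and in the estimate of the spread. The SA arrays carry a time label of 2 weeks, which the sample descriptions give as 2 to 3 weeks and the series design as 2 to 4 weeks. The Ctrl arrays carry a time label of 9 months, so pHe and time in culture cannot be told apart in this comparison. The LA arrays carry a label of 9 months too, but their descriptions say 8 to 10 weeks and the design 8 to 10 months. Every group was grown in RPMI-1640 with 15% fetal bovine serum, 23.8 mM NaHCO3 and 2 mM GlutaMAX, a stable source of glutamine, at 37 °C in 5% CO2.

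The genes were those with a probe set naming a single gene symbol, read at their brightest probe set. Of 33616 such symbols, 21070 passed a level filter, a 6-array mean of at least 3.77 (the median over probe sets), and 12038 of these were protein coding. Values are the deposited ones, on a log2 scale, so that a difference of 1 is a doubling. The base of the logarithm was not given in the sources used here.

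Plasma cells secrete antibody, and their large endoplasmic reticulum depends on chaperones, on the unfolded protein response and on disposal of misfolded protein. Myeloma cells grow in bone marrow, where lactic acid from glycolysis and the acid made by bone-resorbing cells can lower the pH outside the cell. Cells exposed to acid are known to export protons, to alter glycolysis and lipid synthesis, to slow the cell cycle and to engage the integrated stress response, in which kinases that sense stress slow protein synthesis while ATF4 and its partners raise genes of amino acid supply.

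The SA arrays stood apart from the Ctrl arrays by more than replicates stood apart from each other. The root mean square difference over the genes was 0.365 between the Ctrl arrays and 0.386 between the SA arrays, against 0.635 to 0.716 between a Ctrl and an SA array. In limma, a linear model that shares the estimate of spread among genes, 1312 genes were higher in SA (6.23% of those tested) and 1801 were lower (8.55%) at a Benjamini-Hochberg adjusted p under 0.05. Replicate number explained only 1.18% of the variation within groups, where 33.3% would be expected, and no source used here states that a replicate term was removed. If it was, standard errors from a fit that ignores it are too small. With replicate number as a replicate block, 611 genes were higher (2.9%) and 736 lower (3.49%), and all of them were also called without it. Counts with the block are therefore given beside the others. Among protein-coding genes 914 were higher (7.59%) and 1449 lower (12.0%), with a median difference of -0.08. With the block, 425 of the 12038 were higher and 644 lower. These shares and counts are the background for every list below. A list whose shares lie near them shows nothing particular to its members. Calls also depend on signal level, as given below, so bright lists have a higher background than these shares. Among the 10084 protein-coding genes outside chromosomes 9, 10, 11 and 22, 875 were higher (8.68%) and 962 lower (9.54%), with a median of -0.04. The chromosomes left out are those with the lowest protein-coding medians in these data, -0.43 to -0.28. A smaller excess of falls outside them therefore follows from the choice.

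**Figure D1:**
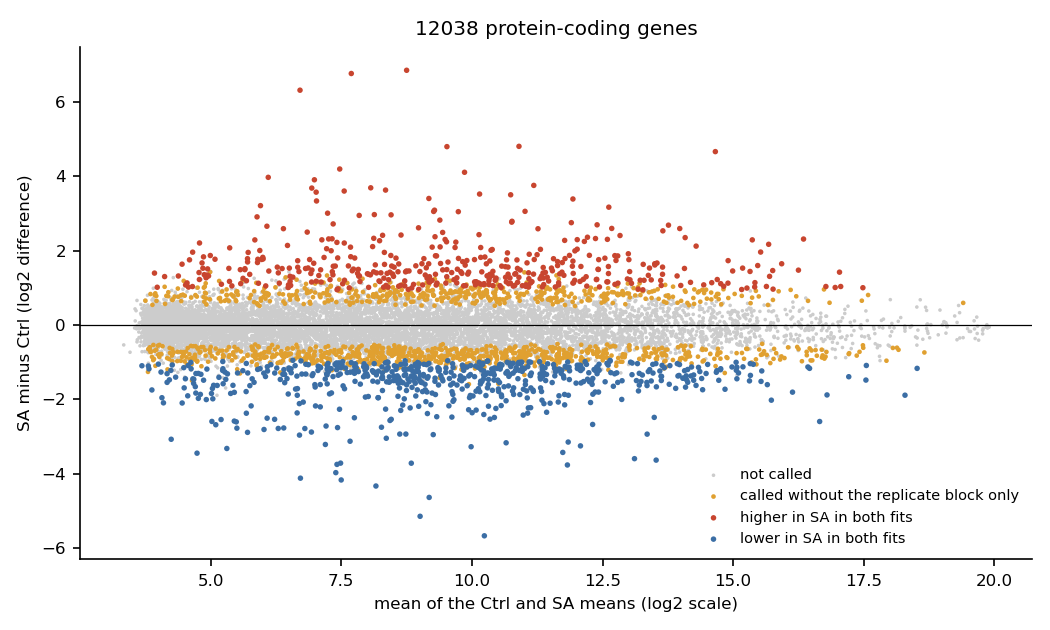
Difference between SA and Ctrl means against the mean level of both groups, on a log2 scale, for the 12038 protein-coding genes tested. Each point is a gene. Calls are sparse among the dimmest genes, and most of those called in both fits differ by at least 1 (over all 21070 genes, 597 of 611 higher and 717 of 736 lower).

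Calls were rarest where signal was low. Among the dimmest 25% of protein-coding genes 2.06% were higher and 3.52% lower, and among the brightest 25% these shares were 10.9% and 18.7%. For 49 of the genes called higher, the Ctrl mean lay below 3.77, and for 88 of those called lower the SA mean did, so the sizes of these differences depend on the background of the array. Another, dimmer probe set existed for 91 genes called higher and 101 called lower, and its difference had the same sign for 59 (64.8%) and 74 (73.3%) of them, against 60.9% of all 857 genes with such a probe set. Its median difference was 0.14 and -0.33, where the brighter probe sets had 1 and -0.96.

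The plasma cell identity of the line was present in both groups. JCHAIN, the joining chain of polymeric antibody, read 19.93 and 19.91 in the Ctrl arrays and 19.82 and 19.91 in the SA arrays. IRF4, a transcription factor on which myeloma cells depend, read 15.97 and 15.80 in Ctrl and 16.08 and 16.25 in SA, and the surface antigen CD38 read between 17.36 and 17.53 in all 4 arrays. SDC1, the plasma cell antigen CD138, read 11.81 and 11.80 in Ctrl and 11.39 and 11.14 in SA, and did not pass the test. The B cell genes MS4A1 and PAX5 stayed between 3.51 and 4.93. Of 12 T and NK cell markers 8 lay below the level filter in both groups, with a mean level of 3.53 to 3.58 in the 4 arrays, and of 10 monocyte markers 6 did, at 3.67 to 3.77. No member of the T and NK cell, monocyte, stromal or endothelial lists was called. NCAM1 (CD56), also known as an NK cell marker, was not on the T and NK list and rose by 6.86. Of 6 erythroid and platelet markers above the level filter 2 rose, and 0 with the block.

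The 25 largest rises and the 25 largest falls among protein-coding genes called in both fits spanned 3.06 to 6.86 upwards and -2.96 to -5.67 downwards. In all 50 the SA arrays lay wholly outside the range of the Ctrl arrays. Their limma adjusted p-values reached 0.0113, and 0.00658 with the block. The 50 were picked for large called differences, so both were to be expected from the choice. Over all 21070 genes, both SA arrays lay above both Ctrl arrays for 5243 and below them for 6807. NCAM1, the adhesion molecule CD56, read 5.10 and 5.54 in Ctrl and 12.60 and 11.76 in SA, a difference of 6.86 ± 0.31 (SE). A dimmer probe set of NCAM1 read 0.01 higher in SA, but its mean level of 2.95 was below the level filter, so it bears little on the rise. Of the 50 genes 3 had a second probe set, and 0 of these differed by at least 1 in the same direction. The second probe set of SPATS2L, at a mean level of 4.32 and so above the level filter, differed by -0.026. Its brighter probe set differed by 3.525. CFAP126, a protein of cilia and flagella, read 4.21 and 4.40 in Ctrl and 11.12 and 11.04 in SA. Both genes were low in LA, NCAM1 at 4.45 and 4.76 and CFAP126 at 4.95 and 4.76.

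**Figure D2:**
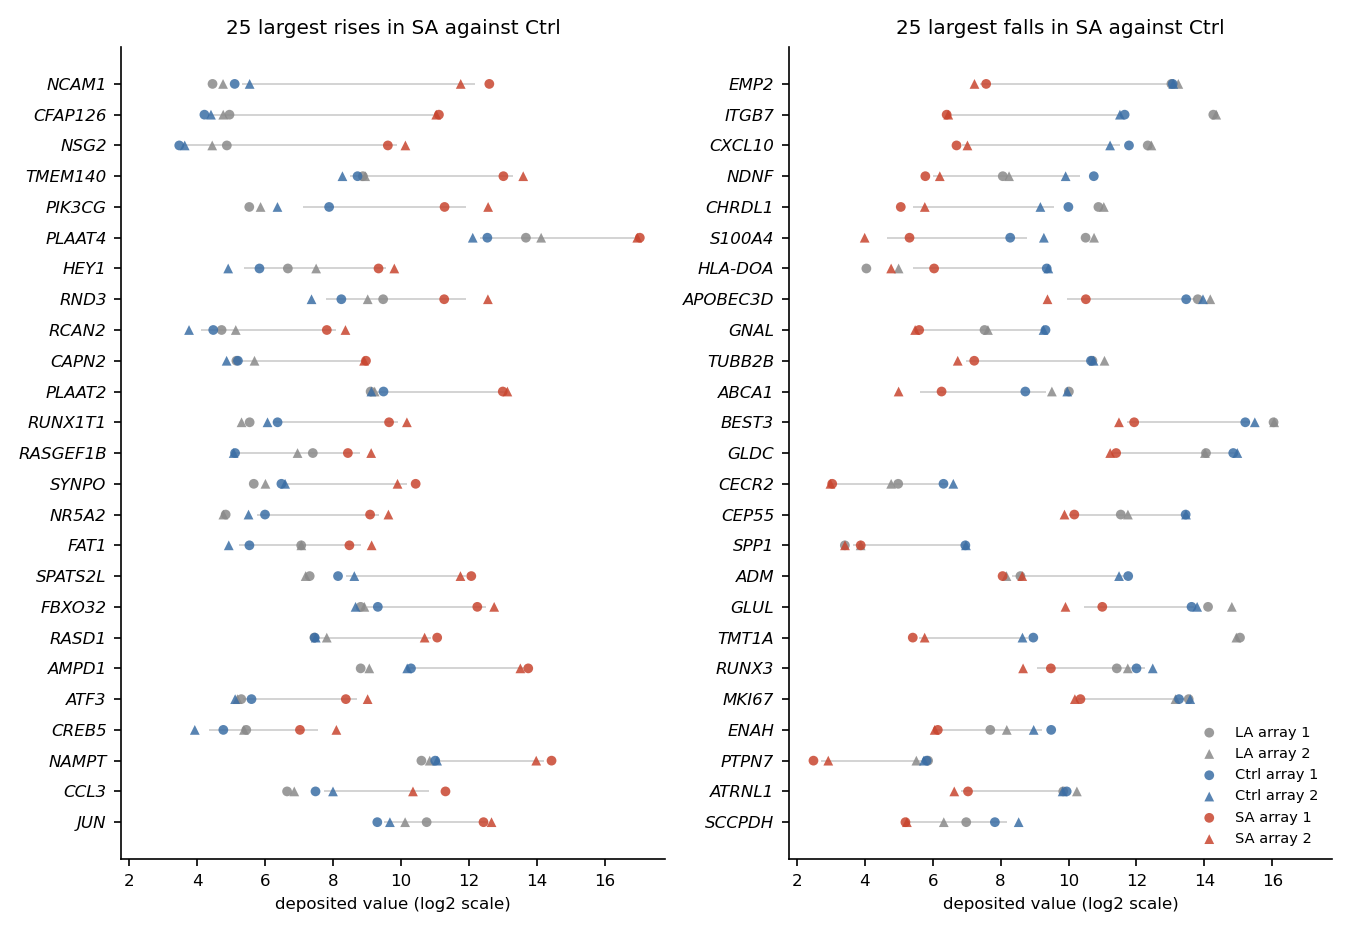
Deposited value on a log2 scale in each array for the 25 genes with the largest rises (left) and the 25 with the largest falls (right) in SA against Ctrl. Circles are replicate 1 and triangles replicate 2, and the grey line joins the Ctrl and SA means. SA and Ctrl points do not overlap for any of the 50 genes, which were picked for large called differences. The LA points lie in varied places.

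PLAAT4 and PLAAT2, phospholipases and acyltransferases of a family clustered on chromosome 11, rose together. PLAAT4 read 12.54 and 12.11 in Ctrl and 17.03 and 16.96 in SA, and PLAAT2 rose by 3.76 ± 0.17. A further member, PLAAT3, rose by 2.03 ± 0.20 from 9.37 to 11.40, and was named after its value was seen. SYNPO, an actin-bundling protein, rose by 3.63 and the calpain protease subunit CAPN2 by 3.91, and the atypical cadherin FAT1 rose by 3.58. The nuclear receptor NR5A2 rose by 3.61, the corepressor RUNX1T1 by 3.69 and FBXO32, a ubiquitin ligase subunit known from muscle wasting, by 3.51.

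PIK3CG, the catalytic subunit of PI3-kinase gamma, had the widest standard error of the 50 genes. It read 7.88 and 6.36 in Ctrl and 11.28 and 12.56 in SA, a difference of 4.80 ± 0.59, and a dimmer probe set, at a mean level of 2.94 and so below the level filter, read 0.60 higher in SA. NAMPT, the rate-limiting enzyme of NAD salvage, read 11.01 and 11.06 in Ctrl and 14.43 and 13.98 in SA, where both SA arrays stood clear of Ctrl. AMPD1, an AMP deaminase known from muscle, rose by 3.39 ± 0.16 from 10.24 to 13.63. The LA arrays were at 8.81 and 9.06 for AMPD1 and at 10.60 and 10.84 for NAMPT, below Ctrl in both cases.

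Among the falls, EMP2, a tetraspan membrane protein, was the largest, at 13.07 and 13.08 in Ctrl and 7.57 and 7.23 in SA. The LA arrays read 13.03 and 13.23, on either side of Ctrl. BEST3, a bestrophin chloride channel, was at 15.20 and 15.48 in Ctrl and fell to 11.93 and 11.48 in SA. TMT1A, a methyltransferase, fell by 3.21, with 8.96 and 8.64 in Ctrl, 5.41 and 5.76 in SA and 15.05 and 14.94 in LA. The LA arrays lay above Ctrl by more than Ctrl lay above SA. ADM, which encodes the vasodilator adrenomedullin, read 11.76 and 11.49 in Ctrl, 8.06 and 8.64 in SA, and 8.58 and 8.17 in LA, where the ranges of the acid groups overlap. SPP1, the matrix protein osteopontin, read 6.96 and 6.98 in Ctrl, 3.88 and 3.42 in SA, and 3.41 and 3.88 in LA.

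Genes of cell division fell as a group. Of 27 genes of the list of cyclins, mitotic kinases and the anaphase-promoting complex, 24 fell (16 with the block), 0 rose, and the median difference was -1.40 against -0.08 over protein-coding genes. Outside chromosomes 9, 10, 11 and 22, whose protein-coding medians lay between -0.43 and -0.28, 21 of 23 fell. FOXM1, a transcription factor that drives mitotic genes, read 11.13 and 11.23 in Ctrl and 8.91 and 8.73 in SA. UBE2C, which hands ubiquitin to that complex, read 11.50 and 11.32 in Ctrl and 9.22 and 9.23 in SA. The kinase CDK1 read 11.78 and 12.09 in Ctrl and 10.54 and 9.78 in SA. For all 27 genes both SA arrays lay below both Ctrl arrays, as they did for 4545 of the 12038 protein-coding genes tested. The median level of the list was 11.05 and 10.81 in Ctrl, 9.35 and 9.16 in SA, and 10.96 and 11.09 in LA. These are bulk samples, and fewer cells in division and less RNA per cell cannot be told apart.

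The promoter of MKI67, a marker of dividing cells and the member of the list with the largest difference (-3.15), is printed to show the letters of the cell cycle homology region (CHR), TTTGAA, which is known in promoters active late in the cell cycle. It lies at chr10:128126374-128126673 on the minus strand of GRCh38.p14 in RefSeq, and the capitals mark 2 matches, which begin 47 and 29 bases before the start:
MKI67: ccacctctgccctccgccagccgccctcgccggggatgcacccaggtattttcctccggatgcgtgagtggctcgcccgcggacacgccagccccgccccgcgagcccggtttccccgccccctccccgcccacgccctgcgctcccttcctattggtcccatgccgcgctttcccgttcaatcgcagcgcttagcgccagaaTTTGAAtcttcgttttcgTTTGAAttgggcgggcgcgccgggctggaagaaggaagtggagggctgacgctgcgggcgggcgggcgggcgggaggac
Windows of 300 bases, 250 before and 50 after each RefSeq start, were searched on both strands. TTTGAA was found for 12 of 20 genes of this list with a window and for 18 of 22 of the list of mitotic kinesins, against 18.2% of 27305 genes and 14.8% of the 10021 tested protein-coding genes with a window. In the replisome list it was found for 1 of 36 genes. The E2F letters TTCCCGCC were found there for 10 of 36, against 3.79% of all genes with a window and 6.0% of the tested protein-coding ones. A match is only a description of the letters.

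Mitotic kinesins and cytokinesis genes fell too: 20 of 23 (17 when blocked), and their median was -1.39. CEP55, which is needed for the last cut between daughter cells, read 13.45 and 13.46 in Ctrl and 10.17 and 9.88 in SA, and KIF15, a spindle motor, read 10.83 and 10.88 in Ctrl and 8.34 and 8.42 in SA. Of 36 kinetochore and checkpoint genes 22 fell (15 when blocked), and the median was -1.06. BUB1, a checkpoint kinase, read 16.62 and 16.86 in Ctrl and 14.93 and 14.51 in SA. The list of condensin, cohesin and replication-coupled chromatin genes had 20 of 30 lower (14 with the block), among them the cohesin regulator CDCA5 at -2.37 and the chromatin remodeller HELLS at -2.22.

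Genes of DNA synthesis were also lower. In the replisome and origin licensing list 29 of 43 were lower (23 when blocked), and the median was -1.08. CDC6, which loads the replicative helicase, read 13.35 and 13.28 in Ctrl and 11.43 and 11.03 in SA, and CLSPN, the checkpoint adaptor claspin, read 10.10 and 10.20 in Ctrl and 8.15 and 8.03 in SA. Of 24 nucleotide synthesis genes 9 fell (7 with the block). TK1, thymidine kinase, read 12.41 and 12.80 in Ctrl and 10.63 and 9.88 in SA, and PAICS, of purine synthesis, fell by 1.88 ± 0.14 from 17.74 to 15.86. The exception was RRM2B, the ribonucleotide reductase subunit known to be induced by p53 outside S phase, which rose by 1.39 ± 0.15. RRM2, the subunit of dividing cells, fell by 1.48. Of 26 Fanconi and homologous recombination genes 12 fell (6 with the block), led by FANCG at -2.20.

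The control of G1 moved less. Of 34 genes 8 fell and 1 rose (3 and 0 when blocked), and the median was -0.40. The falls were among E2F factors and their partners: E2F8 read 11.46 and 11.77 in Ctrl and 9.43 and 8.73 in SA, E2F7 fell by 1.67 and E2F1 by 1.27. CDKN1B, the inhibitor p27, differed by -0.57 and did not pass the test. CCND2, the cyclin that LP-1 expressed at 18.86 and 18.53 in Ctrl, read 18.15 and 18.54 in SA, also short of the test, and the ranges met. The cell cycle inhibitor CDKN1A lay below the level filter. Of 52 replication-dependent histone genes 11 fell (7 when blocked), and the median was -0.50. Probe sets of this multigene family may share sequence.

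**Figure D3:**
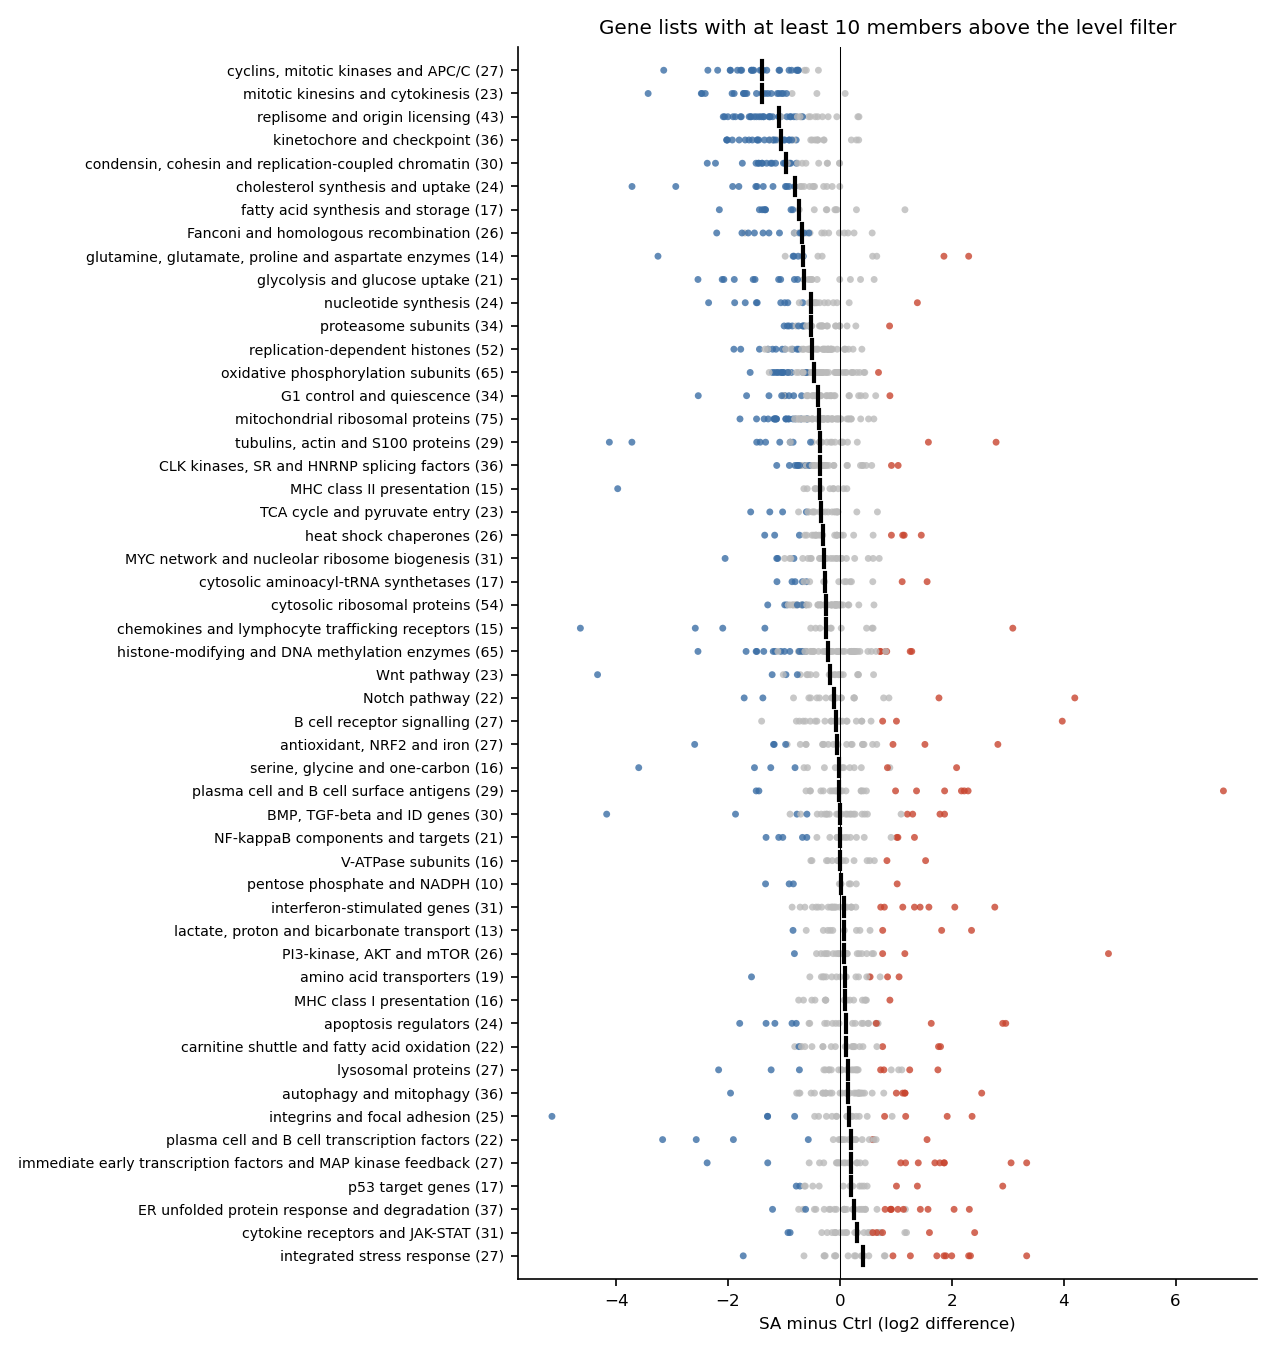
Difference between SA and Ctrl (log2) for each member above the level filter of each gene list with at least 10 such members, given in brackets. Blue points were lower and red points higher at an adjusted p under 0.05 without the block, grey points were not called, and black bars mark the list medians, which run from -1.40 for cyclins and mitotic kinases to 0.41 for the integrated stress response.

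Glycolysis genes were lower. Of 21 genes of glycolysis and glucose uptake 10 fell (7 with the block) and 0 rose, with a median of -0.65, and 6 of the 16 outside chromosomes 9, 10, 11 and 22 fell. PFKFB3, whose product makes the activator of phosphofructokinase, read 7.74 and 7.24 in Ctrl and 4.75 and 5.16 in SA. The glucose transporter SLC2A1 read 8.13 and 7.48 in Ctrl and 5.84 and 5.62 in SA, and TPI1, triose phosphate isomerase, fell by 2.10 ± 0.20. HK2, which traps glucose as the first step of the pathway, fell by 1.55, a call lost without the second Ctrl array (-1.49, limma adjusted p = 0.052), and read 7.04 and 7.44 in LA, below SA at 8.60 and 7.94. TXNIP and ARRDC4, arrestins known to be induced by glucose and to restrain glucose uptake, both rose. TXNIP read 8.11 and 7.84 in Ctrl and 10.56 and 11.03 in SA, and ARRDC4 rose by 1.52 ± 0.28.

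Proton handling changed in a few members only. HVCN1, the voltage-gated proton channel of B cells and phagocytes, read 13.08 and 12.73 in Ctrl, 15.40 and 15.11 in SA, and 9.94 and 10.63 in LA. SLC9A9, a sodium-proton exchanger of endosomes, read 6.81 and 5.71 in Ctrl and 7.87 and 8.29 in SA, a difference of 1.82 ± 0.43, whose call was lost without the second Ctrl array (1.26, limma adjusted p = 0.101), the first SA array (2.03, 0.0501) or the second SA array (1.61, 0.102), and with no filter on dim probe sets (0.0623). In the list of lactate, proton and bicarbonate transport 3 of 13 rose and 1 fell (2 and 0 with the block). The bicarbonate transporter SLC4A7 differed by -0.22 and was not called. None of 8 acid-sensing receptors and channels above the filter was called, and the proton receptor GPR65 read 4.94 and 4.88 in Ctrl and 5.07 and 5.38 in SA. Of 16 V-ATPase subunits, the pump that acidifies lysosomes, 2 rose (1 with the block). ATP6V0E1 read 14.44 and 14.39 in Ctrl and 16.08 and 15.81 in SA.

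Lysosomal genes had 4 of 27 higher (14.8%) and 3 lower (11.1%), and 2 and 2 with the block. Among all protein-coding genes 7.59% were higher and 12.0% lower, so the falls were near the background. MCOLN1, a lysosomal calcium channel, rose by 1.25 and IDS, which degrades sulfated sugars, by 1.75. The cathepsins CTSZ and CTSC fell. CTSZ read 11.58 and 11.71 in Ctrl and 9.46 and 9.49 in SA, and CTSC fell by 1.23.

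Of 24 genes of cholesterol synthesis and uptake 12 fell (9 with the block) and 0 rose, with a median of -0.80. MVD, mevalonate diphosphate decarboxylase, read 10.28 and 10.12 in Ctrl and 7.26 and 7.28 in SA. HMGCS1, which makes HMG-CoA, read 16.80 and 17.27 in Ctrl and 15.61 and 14.86 in SA. SREBF1, a transcription factor that turns on lipid genes, read 9.35 and 9.74 in Ctrl and 7.89 and 7.37 in SA, and INSIG1, a sterol sensor and itself a target of that factor, fell by 1.48. ABCA1, which exports cholesterol and is turned on when sterols are plentiful, read 8.73 and 9.96 in Ctrl and 6.26 and 5.00 in SA. ABCA1 is counted in this list and among its falls in both fits, although it is not a gene of synthesis or uptake. Its direction was the same as that of the synthesis genes, with a wide spread between replicates. The sterol element letters TCACNCCAC were in the window of 1 of 22 genes of this list, which was not a called gene.

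Fatty acid synthesis had 8 of 17 genes lower (6 with the block) and 0 higher, with a median of -0.73, or -0.46 with no filter on dim probe sets. FASN, fatty acid synthase, read 9.45 and 10.05 in Ctrl and 7.95 and 7.25 in SA. SCD, which desaturates fatty acids, fell by 1.39 ± 0.13 and ELOVL6, which elongates them, by 1.44 ± 0.15. ELOVL6 read 13.09 and 12.92 in LA, above Ctrl at 10.37 and 10.21. Genes of the carnitine shuttle and fatty acid oxidation had 3 of 22 higher and 1 lower (2 and 0 with the block). PPARGC1A, a coactivator of mitochondrial genes, read 11.78 and 11.51 in Ctrl and 13.31 and 13.58 in SA, and the carnitine transporter SLC22A5 rose by 1.76.

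**Figure D4:**
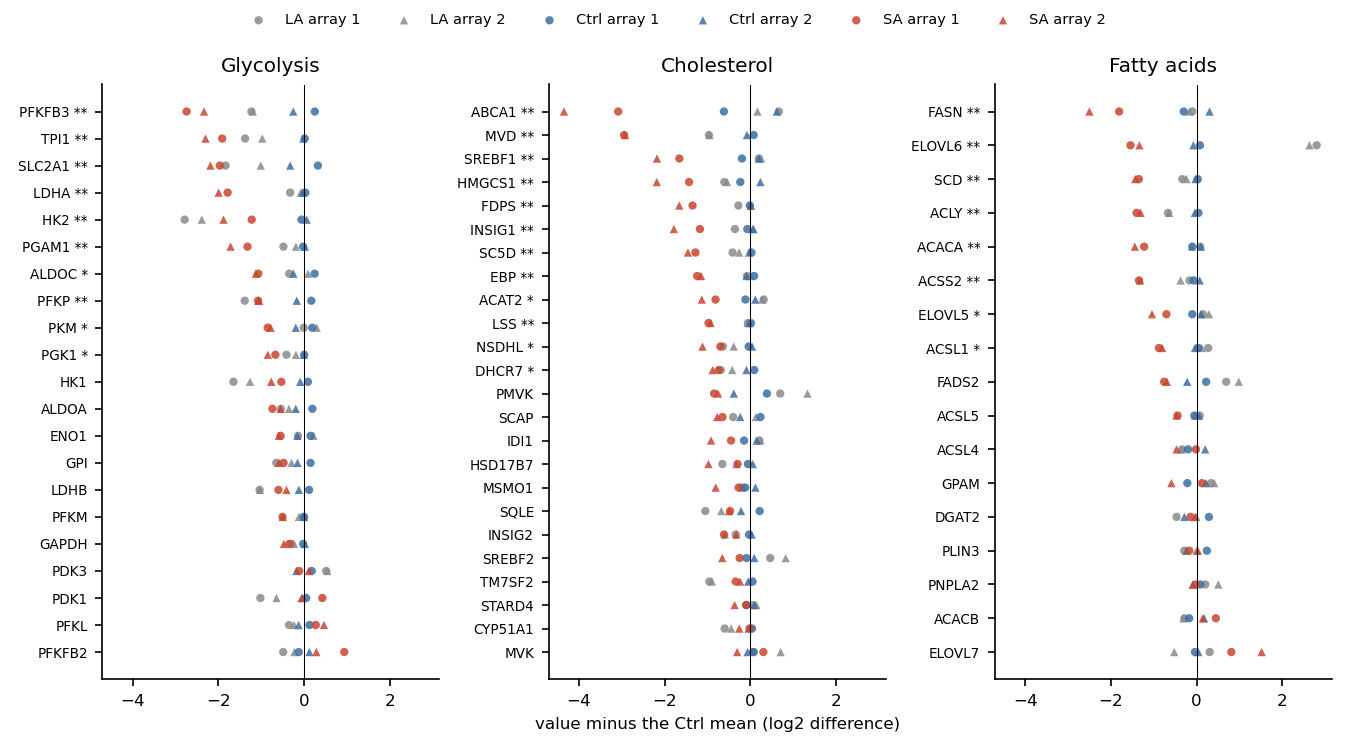
Value in each array minus the Ctrl mean (log2 difference) for the members above the level filter of the glycolysis, cholesterol and fatty acid lists, ordered by the difference between SA and Ctrl. Circles are replicate 1 and triangles replicate 2, 1 asterisk marks a call without the block only, and 2 asterisks a call in both fits. In the upper rows the SA points lie to the left of the Ctrl points, while LA points of ELOVL6 lie far to the right and those of HK2 to the left.

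GLDC, the decarboxylase of the glycine cleavage system, read 14.85 and 14.97 in Ctrl and 11.40 and 11.23 in SA, and GCSH, a carrier protein of the same system, fell by 1.53 ± 0.19. ALDH1L2, a folate enzyme of mitochondria, read 9.45 and 8.80 in Ctrl and 11.16 and 11.26 in SA. Over the list of serine, glycine and one-carbon genes 2 of 16 rose and 4 fell (1 and 3 when blocked), and the median was -0.02. GLUL, glutamine synthetase, read 13.62 and 13.79 in Ctrl and 10.99 and 9.91 in SA, and LA read 14.11 and 14.81. The asparagine synthetase ASNS rose by 1.86 ± 0.25.

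Of 65 oxidative phosphorylation subunits 15 fell and 1 rose (7 and 0 when blocked), and the median was -0.46, or -0.25 without the second SA array. The median level of that list was 13.16 and 13.46 in Ctrl and 13.21 and 12.70 in SA, so the groups overlapped. Of 75 mitochondrial ribosomal proteins 19 fell (8 when blocked), and the median was -0.37, or -0.58 without the first SA array. Outside chromosomes 9, 10, 11 and 22 the falls in these lists were 9 of 55 and 10 of 63, where 9.54% of all protein-coding genes were lower. On all chromosomes, 16.8% of protein-coding genes at mean levels of 7.76 to 10.58 were lower, and 18.7% of brighter ones. The NADH dehydrogenase subunit NDUFV2 fell by 1.60 and MRPL4 by 1.79. Of 23 genes of the TCA cycle and pyruvate entry 4 fell (3 with the block), among them DLAT, a subunit of pyruvate dehydrogenase, at -1.59. Cytosolic ribosomal proteins had 6 of 54 lower and proteasome subunits 8 of 34 lower and 1 higher, and with the block 0 in either list.

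The integrated stress response list had 9 of 27 genes higher and 1 lower, the same numbers when blocked, with a median of 0.41. ATF3, a stress-induced repressor, read 5.60 and 5.12 in Ctrl and 8.37 and 9.02 in SA. EIF2AK3, the kinase PERK that senses stress of the endoplasmic reticulum, read 14.05 and 14.02 in Ctrl and 15.64 and 15.90 in SA. CHAC1, which degrades glutathione, rose by 2.30 ± 0.21, and CREBRF, a regulator of the unfolded protein response, by 2.33 ± 0.21. ATF4 read 12.45 and 12.36 in Ctrl and 12.29 and 12.36 in SA, so the groups met. TRIB3, another known target, read 8.46 and 8.32 in Ctrl and 8.06 and 8.15 in SA, and DDIT3, the factor CHOP, read 4.58 and 4.71 against 5.75 and 5.15. Neither passed the test. DDIT4, a stress-induced inhibitor of mTOR, fell by 1.73 ± 0.16.

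The window of ATF3 is printed because ATF3 had the largest rise of the list. It lies at chr1:212565157-212565456 on the plus strand, is 1 of 2 windows RefSeq lists for the gene, and the capitals mark letters of the C/EBP-ATF response element (CARE), TGATGNAA, 191 bases before the start:
ATF3: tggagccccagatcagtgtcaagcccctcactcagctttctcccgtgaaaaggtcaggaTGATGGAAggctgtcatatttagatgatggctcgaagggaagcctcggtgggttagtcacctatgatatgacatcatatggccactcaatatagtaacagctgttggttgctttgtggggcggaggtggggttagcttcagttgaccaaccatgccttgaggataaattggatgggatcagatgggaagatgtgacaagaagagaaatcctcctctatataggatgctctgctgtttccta
These letters were in a window of 5 of 22 genes of the list and of 4.46% of all genes with a window. Which start was used in LP-1 was not measured.

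The endoplasmic reticulum list had 10 of 37 higher and 2 lower (5 and 0 when blocked), and the median was 0.26. SEL1L, which holds the ubiquitin ligase complex that clears misfolded protein, read 15.24 and 15.14 in Ctrl and 17.38 and 17.63 in SA, DNAJB9, a co-chaperone, rose by 2.04 ± 0.19, and ERN1, the sensor IRE1, by 1.57 ± 0.26. Of the classical chaperones, HSPA5 (BiP) read 15.96 and 15.91 in Ctrl and 15.87 and 15.66 in SA and was not called, and neither was XBP1 at 0.23. For SEL1L, ERN1 and EIF2AK3 the LA arrays lay below Ctrl, at 14.50 and 14.23, 10.70 and 10.10, and 13.08 and 12.77.

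Aminoacyl-tRNA synthetases had 2 of 17 higher (11.8%) and 5 lower (29.4%), and 2 and 1 with the block. GARS1 rose by 1.56 and WARS1 by 1.11, while KARS1 fell by 1.12. Among heat shock chaperones 4 of 26 rose and 3 fell (3 and 2 with the block), with HSPA13, of the endoplasmic reticulum, at 1.46 and TRAP1, of mitochondria, at -1.34. Autophagy genes had 5 of 36 higher and 1 lower (3 and 1 with the block). SQSTM1, the cargo receptor p62, read 12.56 and 12.21 in Ctrl and 14.80 and 15.05 in SA, and NBR1 and OPTN, further cargo receptors, rose by 1.16 and 1.17. BNIP3, a mitophagy receptor known as a hypoxia target, fell by 1.96 ± 0.25. TFRC, the transferrin receptor that takes up iron, read 17.79 and 18.12 in Ctrl and 15.54 and 15.17 in SA, but the mean of its probe sets differed by -0.93 and was not called (limma adjusted p = 0.0849).

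Cell death genes had 4 of 24 higher (16.7%) and 5 lower (20.8%), and 3 and 3 with the block. PMAIP1 (NOXA), a BH3-only protein that opposes MCL1, read 4.32 and 4.54 in Ctrl and 7.50 and 7.18 in SA. BMF, another BH3-only protein, read 7.12 and 6.82 in Ctrl and 9.74 and 10.13 in SA. BCL2, which protects from death, rose by 1.63 ± 0.14, while BID, which promotes it, fell by 1.79 ± 0.15. MCL1 read 17.53 and 17.80 in Ctrl and 18.50 and 18.20 in SA, with an adjusted p of 0.0504 in limma.

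Immediate early factors and MAP kinase feedback genes had 9 of 27 higher and 2 lower (8 and 2 when blocked), and the median was 0.19. FOS, FOSB, EGR1 and the NR4A genes lay below the level filter, so the members measured are only a portion of the list of 43. JUN, of the AP-1 factor, read 9.30 and 9.67 in Ctrl and 12.43 and 12.66 in SA. KLF6 rose by 1.87, the kinase SGK1 by 1.86 and the MAP kinase phosphatases DUSP4 and DUSP5 by 1.70 and 1.79. SPRED2 and SPRY1, which restrain signalling to ERK, fell. SPRED2 read 6.73 and 7.01 in Ctrl, 4.60 and 4.40 in SA, and 4.73 and 4.69 in LA.

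Windows are printed for the called members of that list with the largest difference that held the AP-1 letters TGANTCA (SPRED2) and the cyclic AMP response element letters TGACGTCA (ZFP36L1, an RNA-binding protein that rose by 1.40). SPRED2 lies at chr2:65366729-65367028 and ZFP36L1 at chr14:68793367-68793666, both on the minus strand, each being 1 of 2 windows listed for its gene, and the capitals mark the matches:
SPRED2: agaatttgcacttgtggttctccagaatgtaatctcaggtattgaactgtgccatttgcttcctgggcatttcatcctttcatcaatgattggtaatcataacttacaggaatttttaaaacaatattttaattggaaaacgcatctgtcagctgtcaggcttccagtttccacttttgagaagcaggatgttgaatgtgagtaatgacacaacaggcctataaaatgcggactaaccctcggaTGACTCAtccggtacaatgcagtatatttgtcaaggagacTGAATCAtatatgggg
ZFP36L1: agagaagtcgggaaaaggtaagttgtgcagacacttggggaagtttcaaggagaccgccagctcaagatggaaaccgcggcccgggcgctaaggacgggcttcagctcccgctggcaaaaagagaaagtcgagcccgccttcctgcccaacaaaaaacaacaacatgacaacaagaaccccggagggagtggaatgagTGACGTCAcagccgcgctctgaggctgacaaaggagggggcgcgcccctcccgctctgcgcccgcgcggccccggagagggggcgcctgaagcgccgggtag
The AP-1 letters were in a window of 2 of 22 genes of the list against 9.37% of all genes with a window, and the other letters in 5 of 22 against 2.25%. Among the tested protein-coding genes with a window these shares were 7.08% and 3.72%.

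Of 29 plasma cell and B cell surface antigens 7 rose and 2 fell, the same numbers with the block, while 14 differences were positive and 15 negative and the median was -0.01. TNFRSF17 (BCMA), a receptor for plasma cell survival factors and a target of myeloma therapies, read 14.14 and 14.30 in Ctrl and 16.67 and 16.36 in SA. SLAMF7, another such target, read 14.71 and 14.48 in Ctrl, 16.66 and 16.87 in SA, and 7.47 and 7.42 in LA, where the acid groups lay on opposite sides of Ctrl. CD79A, of the B cell receptor, read 6.37 and 6.24 in Ctrl and 8.62 and 8.43 in SA. CD180, a Toll-like receptor relative, rose by 1.87 ± 0.42, a call lost without the second Ctrl array (1.53, limma adjusted p = 0.101) or the second SA array (1.32, 0.0644) and with no filter on dim probe sets (0.052). LA read 17.29 and 16.80. The tetraspanins CD81 and CD82 fell by 1.45 and 1.50.

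Of 22 plasma cell and B cell transcription factors 3 rose and 4 fell (1 and 3 with the block). RUNX3 read 12.00 and 12.48 in Ctrl and 9.48 and 8.66 in SA, and RUNX1 fell by 2.57 ± 0.15. MAF, an oncogene of some myelomas, read 12.59 and 12.65 in Ctrl, 10.87 and 10.55 in SA, and 14.30 and 14.54 in LA. ITGB7, an integrin chain that MAF is known to turn on, read 11.65 and 11.51 in Ctrl, 6.41 and 6.46 in SA, and 14.26 and 14.35 in LA, the same order of groups. EBF1, a B cell factor, rose by 1.56. In the adhesion list 4 of 25 rose and 4 fell (3 and 3 with the block): the integrin chains ITGA8 and ITGA3 rose by 1.92 and 1.18, and ICAM1 fell by 1.29. ITGA4, the partner chain of ITGB7, read 8.00 and 8.19 in Ctrl and 8.29 and 8.23 in SA and was not called.

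Of 15 chemokines and lymphocyte trafficking receptors 4 fell and 1 rose, in both fits, and the median was -0.24. CXCL10, a chemokine for T cells, read 11.78 and 11.22 in Ctrl and 6.70 and 7.02 in SA, and LA read 12.33 and 12.44. S1PR1, the receptor by which lymphocytes leave tissue, read 7.13 and 6.35 in Ctrl and 3.53 and 4.79 in SA, where the call was lost without the first Ctrl array (-2.19, limma adjusted p = 0.0517). CCR1, a receptor for CCL3, fell by 2.09 ± 0.33. CCL3 itself, a chemokine known to activate bone-resorbing cells in myeloma, read 7.48 and 8.00 in Ctrl and 11.31 and 10.35 in SA. CXCR4, which holds plasma cells in marrow, read 16.11 and 15.71 in Ctrl and 16.36 and 16.42 in SA and did not pass the test.

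Interferon-related genes rose in a subset. Of 31 listed genes 8 rose and 0 fell (6 and 0 with the block), while the median was 0.07. A further 16 of the 47 listed lay below the level filter, among them IFIT1, IFIT2, IFIT3, OASL and USP18. CXCL10 (-4.64), also known to be induced by interferon, was counted in the chemokine list and not here. IFI16, a DNA sensor, read 9.63 and 9.12 in Ctrl and 11.83 and 12.46 in SA, and IFIH1 (MDA5), an RNA sensor, read 6.31 and 6.08 in Ctrl and 8.51 and 7.98 in SA. SP110, a nuclear body protein, rose by 1.59 and IRF9, of the factor that interferon activates, by 1.43. The receptor chain IFNAR2 rose by 1.60 ± 0.21, and SOCS2, which restrains cytokine signalling, read 11.83 and 11.43 in Ctrl and 13.84 and 14.23 in SA. Class I antigen presentation had 1 of 16 genes called, ERAP1 at 0.89, and 0 with the block (limma adjusted p = 0.0803). Class II had 1 of 15 in both fits, HLA-DOA, which modulates peptide loading and read 9.36 and 9.41 in Ctrl, 6.04 and 4.78 in SA, and 4.05 and 5.00 in LA.

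Of 6 APOBEC3 genes, cytidine deaminases that mutate viral and tumour DNA, 4 fell, and they did so with the block too. APOBEC3G read 14.90 and 14.74 in Ctrl and 12.09 and 11.68 in SA, and APOBEC3D and APOBEC3F fell by 3.77 ± 0.39 and 2.67 ± 0.34. APOBEC3C fell by 1.17, a call lost without the first Ctrl array (-1.20, limma adjusted p = 0.0502), the second Ctrl array (-1.14, 0.0645) or the second SA array (-0.94, 0.0542). The paralogs share sequence, so their probe sets may not be fully distinct, and all 6 lie on chromosome 22, where 75 of 268 protein-coding genes fell and the median was -0.36. The part of that chromosome-wide value in the falls was not tested. APOBEC3A, dim in all arrays, rose by 0.57 without the block only, and APOBEC3B differed by 0.53 and was not called.

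Signalling lists had few called members, but some were large. HEY1, a Notch target, read 5.83 and 4.91 in Ctrl and 9.34 and 9.80 in SA, and HEY2 rose by 1.77 ± 0.34. HES6, a neurogenic relative, fell by 1.71 and MFNG, which modifies Notch receptors, by 1.38, so that 2 of 22 genes of the pathway rose and 2 fell, with the block too. In the BMP and TGF-beta list 4 of 30 rose and 4 fell (4 and 2 with the block). CHRDL1 and NOG, which bind and block BMPs, fell: CHRDL1 read 10.00 and 9.17 in Ctrl and 5.06 and 5.77 in SA, and NOG fell by 1.87 ± 0.21. BMP6 read 4.18 and 3.94 in Ctrl and 5.90 and 5.96 in SA. ID1 and ID2, known BMP targets, rose by 1.21 and 1.30, while ID3, another, differed by 0.49 and was not called. RCAN2, a feedback inhibitor of calcineurin, read 4.47 and 3.76 in Ctrl and 7.81 and 8.36 in SA, and RICTOR, of mTOR complex 2, rose by 1.16.

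MYC read 17.05 and 16.84 in Ctrl and 17.48 and 17.42 in SA, a difference of 0.51 that was not called, while MYCN read 10.73 and 10.60 in Ctrl and 8.61 and 8.62 in SA. Of 31 genes of the MYC network and ribosome biogenesis 4 fell (3 with the block). Among chromatin enzymes 13 of 65 fell and 6 rose (8 and 2 with the block). TET1, which oxidises methylated cytosine, read 9.97 and 9.48 in Ctrl and 7.12 and 7.25 in SA, KMT2A, a histone methyltransferase, fell by 1.68 and the DNA methyltransferase DNMT3B by 1.50. EZH1, the Polycomb enzyme of resting cells, rose by 1.28 ± 0.22. In the cytoskeletal list 9 of 29 fell and 2 rose (6 and 2 with the block). S100A4 read 8.28 and 9.27 in Ctrl and 5.32 and 4.00 in SA, its relative S100A11 read 9.79 and 8.95 in Ctrl and 11.57 and 12.76 in SA, and the tubulin TUBB2B fell by 3.72 ± 0.21.

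Small nucleolar RNA genes were higher in a large share. These RNAs guide the methylation (C/D box, SNORD genes) and pseudouridylation (H/ACA box, SNORA genes) of ribosomal RNA and are mostly made from introns of host genes. Of 121 tested 43 were higher (35.5%) and 1 lower, 34 and 0 with the block, against 6.23% and 8.55% of all genes, and the median difference was 0.68. The median offset from the Ctrl mean was 0.81 in the first SA array and 0.50 in the second, and 0.21 and 0.11 in the LA arrays. Of 82 SNORD genes 28 rose and of 37 SNORA genes 15 rose. SNORD71 read 11.06 and 11.19 in Ctrl and 14.90 and 14.16 in SA, SNORA47 read 14.73 and 14.45 in Ctrl and 17.30 and 17.65 in SA, and SNORD8 rose by 2.65 ± 0.32. SNORA2A fell by 0.88, without the block only. A related class, the small Cajal body RNAs that guide modification of spliceosomal RNA, had 12 of 18 genes higher (11 when blocked) and 0 lower, with a median of 1.75. SCARNA21 read 5.82 and 6.41 in Ctrl, 10.22 and 10.09 in SA, and 6.80 and 6.12 in LA, so both SA arrays lay above all others. SCARNA6 rose by 3.96 and SCARNA7 by 3.68. These genes were picked out after their values were seen. All samples were extracted with the same column kit, of a kind known to recover short RNAs poorly, and whether that recovery differed between samples was not tested. Genes of the SNORD115 and SNORD116 clusters are near-identical copies, so values of single members are uncertain.

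**Figure D5:**
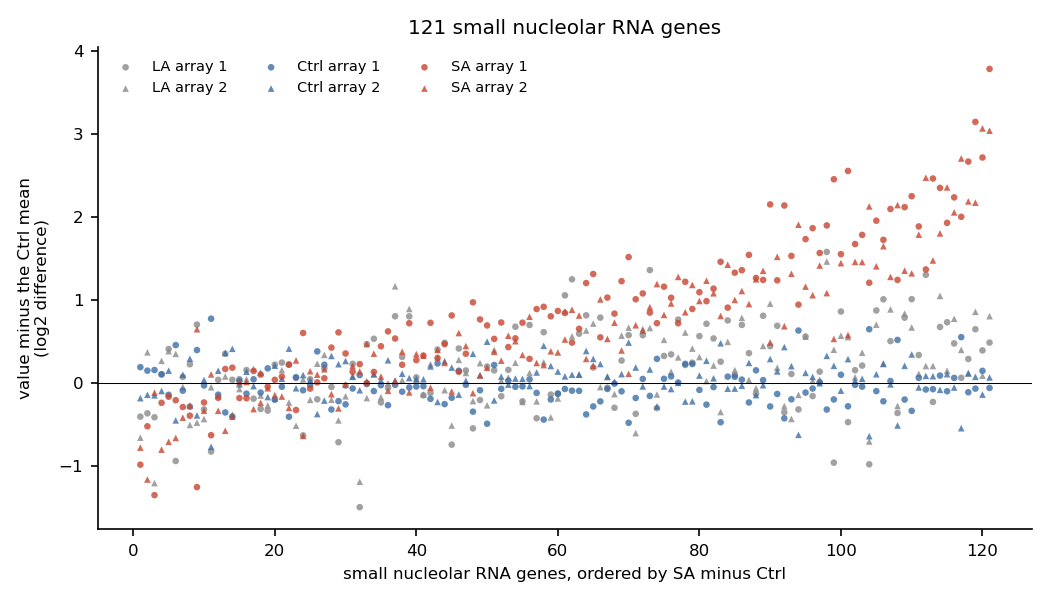
Value in each array minus the Ctrl mean (log2 difference) for the 121 small nucleolar RNA genes tested, ordered by the difference between SA and Ctrl. Circles are replicate 1 and triangles replicate 2. The mean SA difference climbs to 3.41 on the right, while most LA points lie closer to 0.

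Of 684 microRNA genes 21 were higher and 4 lower (9 and 0 with the block), a share below the background. The called genes included all 3 copies of MIR550A on chromosome 7. MIR550A1 read 6.67 and 6.40 in Ctrl and 8.49 and 8.62 in SA, MIR550A2 read 6.48 and 6.43 in Ctrl and 8.62 and 8.54 in SA, and MIR550A3 rose by 1.22 ± 0.20. In LA they read 6.91 and 7.11, 6.13 and 5.91, and 7.21 and 7.13. Such an array reads the precursor or its primary transcript, not the mature microRNA. The RefSeq hairpins of the first 2 copies differ at 3 of 97 bases, and that of MIR550A3, of 95 bases, is also nearly the same. The probe sets of all 3 copies therefore cannot be taken as separate measurements. The mature sequences are printed to show their seeds (bases 2 to 8, in capitals), which the 2 forms from the 5′ arm share and the form from the 3′ arm does not:
hsa-miR-550a-5p: aGUGCCUGagggaguaagagccc
hsa-miR-550a-3-5p: aGUGCCUGagggaguaagag
hsa-miR-550a-3p: uGUCUUACucccucaggcacau
Among 1091 long noncoding RNA genes 57 rose and 31 fell (20 and 8 with the block). SOCS2-AS1, which lies beside SOCS2, rose by 2.11 ± 0.23, and the probe sets of such antisense pairs may share signal. SNHG19, a host of small nucleolar RNAs, fell by 1.64 ± 0.23, opposite to most of the small RNAs themselves.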

How the data were processed

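Per the labels' protocols, total RNA from the RNeasy mini kit was amplified and made into biotin-labelled cDNA for the arrays. The table the authors deposited holds values taken to be log2, made with RMA and the Transcriptome Analysis Console per the submitters' processing notes, with no versions. RMA quantile-normalises arrays, so shifts shared by most genes are removed. Values span 1.93 to 20.02 and array medians 3.77 to 3.80.

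Of 135574 probe sets, 36176 carried 1 symbol, 1119 several and 98279 none, and 25516 of 25555 gene IDs matched the GRCh38.p14 gene table, used for names, gene type and chromosome. The brightest probe set per symbol was kept, with a mean at or above 3.77. Group means over all 6 arrays were fitted in R 4.3.3 with limma 3.58.1 (empirical Bayes, no trend). The p-values were adjusted by Benjamini-Hochberg over 21070 genes, with 3 residual degrees of freedom, or 2 with the replicate block. Replicate numbers are shared by the labels of the groups, but the deviations of same-numbered arrays correlated at -0.565 between Ctrl and SA, and no label states a removal of a replicate term. Errors are SEs from the fit without the block. On data simulated for this comparison (21070 genes, 200 of them changed), the fit recovered 43 of 100 differences of 1 and 97 of 100 of 2, and 31 and 98 with the block, with 12 and 10 false calls. The simulated noise was independent between arrays, with no replicate term removed. The false calls therefore do not show how the fit without the block behaves if such a term was removed before deposit. The number of arrays limits the precision. The comparison, lists, named genes and motifs were chosen with earlier results of these data known. Named genes are the 25 largest rises and falls among protein-coding genes called in both fits, up to 4 called members of each list and up to 2 called the other way, and members whose role the text needs. Alternatives were other filters, probe set means, moderation, centring, the SA and Ctrl arrays alone and leaving out each array. Sequences are RefSeq's, on GRCh38.p14.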

Additional observations from a re-analysis of the deposited data

How the results depend on the processing

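The replicate block lowered the counts from 1312 to 611 genes higher and from 1801 to 736 lower. Leaving out 1 array at a time gave 522 to 770 genes higher and 612 to 1283 lower: 522 and 612 without the second Ctrl array, 660 and 789 without the first Ctrl array, 753 and 1283 without the first SA array, and 770 and 769 without the second SA array. In these fits the lone array of a group was assumed to vary like the other groups, and fewer samples lower the counts by construction. Counts of genes called with a difference of at least 1 stayed within 1.5 times of 705 higher and 836 lower in every alternative run, and no alternative reversed a called gene named in the text. The 50 genes with the largest differences kept their call in each alternative that tested them, and the stricter level filter tested 47. They were picked as large differences called in both fits, so this was to be expected from the choice. The alternatives also reuse the same arrays, so neither the kept calls nor the kept signs are independent support. The further called genes that lost their call without 1 array numbered 28, with limma adjusted p-values of 0.0501 to 0.189. Without the second Ctrl array they included ARRDC4 (1.37), CD81 (-1.17), CTSC (-1.16), DNMT3B (-1.23), DUSP5 (1.62), EBF1 (1.36), ERAP1 (0.73), HEY2 (1.34), ID1 (1.09), ID2 (0.97), INSIG1 (-1.41), KMT2A (-1.43), MCOLN1 (1), NBR1 (0.95), OPTN (1.01), SLC22A5 (1.40) and WARS1 (0.90), given with their log2 differences, and without the first Ctrl array EZH1 (1.07), KARS1 (-1.03), MIR550A3 (1.08) and SPRY1 (-0.96). Without the first SA array they included DUSP5 (1.50), ID2 (1.34), SPRY1 (-1.04) and WARS1 (1.13), and without the second SA array CD81 (-1.09), CTSC (-0.98), DNMT3B (-1.09), ERAP1 (0.74), HEY2 (1.47), ID2 (1.26), MCOLN1 (1.11), NBR1 (1.05) and WARS1 (1.09). APOBEC3A and SNORA2A lost theirs whichever SA or Ctrl array was left out. Of 58 list medians, 5 moved by more than the spread between replicates with no filter on dim probe sets, 5 with the stricter filter, 2 without the first Ctrl array, 4 without the first SA array and 5 without the second. That of the APOBEC3 genes ran from -2.80 to -1.17, and those of lactate and proton transport (-0.10 to 0.30), acid-sensing receptors (-0.18 to 0.07) and apoptosis regulators (-0.07 to 0.14) changed sign. Those of replication-dependent histones (-0.68 to -0.31) and immediate early genes (0.07 to 0.31) kept theirs. MCL1, which was not called, passed the test with trended moderation (limma adjusted p = 0.027), and so did MYC (0.0497) and CDKN1B (0.0437). For genes near the level filter the background of the array limits what can be said of size.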

Other observations

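Cytokine receptors and JAK-STAT genes had 5 of 31 higher and 2 lower (2 and 0 with the block). Among p53 target genes 3 of 17 rose and 2 fell (3 and 0), and among genes of B cell receptor signalling 3 of 27 rose and 0 fell (2 and 0). The list of PI3-kinase, AKT and mTOR had 3 of 26 higher and 1 lower (2 and 0), and that of NF-kappaB 3 of 21 higher and 5 lower (1 and 1). Of the latter, TNFAIP3, which shuts the pathway off, rose by 1.04 and BIRC3 fell by 1.32. Wnt pathway genes had 4 of 23 lower (2 with the block), led by NDNF, a secreted protein, at -4.33. Splicing factors had 8 of 36 lower and 2 higher, and 1 and 0 with the block. Antioxidant and iron genes had 3 of 27 higher and 4 lower (2 and 3). Pentose phosphate genes had 1 of 10 higher and 3 lower (1 and 1), where ME2 rose by 1.02 and TKT fell by 1.33. Amino acid transporters had 3 of 19 higher and 1 lower (1 and 1), and glutamine, glutamate, proline and aspartate enzymes 2 of 14 higher and 5 lower (2 and 1). Of 6 erythroid and platelet markers above the level filter 2 rose, HBD by 0.79 and ITGA2B by 0.81, and 0 with the block.

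Probe sets that carry no symbol or several numbered 45317 above the level filter. Of these 14 were called higher and 27 lower without the block, and with it 1 and 6. They were not linked to any gene here.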
